A study of Mus musculus with 32 samples.

Results

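The genes described here are the Tcf/Lef transcription factors and the proteins that bind beta-catenin and Tcf/Lef factors on DNA, in immortalized mouse embryonic fibroblasts (MEFs) with or without Sprouty genes. The members were the 10 genes Tcf7, Tcf7l1, Tcf7l2, Lef1, Bcl9, Bcl9l, Ctnnb1, Tle1, Tle2 and Tle3, each taken through every array probe that the platform annotation names for it. This gave 20 of the array's 25697 probes, for 9 of the 16593 genes that its probes name, and Tcf7 was not analysed here. WT arrays carried Spry1, Spry2 and Spry4 as floxed but intact alleles (Spry124fl/fl), and KO arrays came from cells in which all of these alleles were excised (Spry124-/-). All cells of both genotypes were serum starved in DMEM with BSA, penicillin and streptomycin, and were profiled 0, 15, 60, 120 and 240 min after FGF. Each genotype had 4 arrays at 0 min and 3 at each later time, which made 32 arrays in 10 groups, and the study calls the replicates biological. The title of the study places these data in the question of how Sprouty proteins bear on genes of the Wnt pathway. The labels do not say which FGF or dose was given, how many lines or clones were immortalized, or how the alleles were excised, and untreated cells at later times were not analysed here.

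Wnt signalling ends in the nucleus, where Tcf/Lef proteins sit on DNA through an HMG box. Without stabilised beta-catenin they recruit Groucho/TLE corepressors, and beta-catenin (Ctnnb1) takes the place of these corepressors and brings in Bcl9 or Bcl9l, which carry Pygopus proteins. Tcf7l1 is known mainly as a repressor, Lef1 and Tcf7 mainly as activators, and Tcf7l2 acts in both ways. Sprouty proteins are feedback inhibitors of the receptor tyrosine kinase and Ras/MAPK pathway that FGF drives. Beta-catenin also holds cadherins to the cytoskeleton at cell junctions, its other known place in fibroblasts.

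Of the DNA-binding members, Tcf7l1 and Tcf7l2 gave clear signals, and their promoter sequences are shown because both transcripts fell late after FGF in both genotypes (values further on). The windows are the 250 bases before the RefSeq transcription start on GRCm38.p6, read 5′ to 3′ on the gene's strand, at chr6:72789046-72789295 on the minus strand for Tcf7l1 and at chr19:55741560-55741809 on the plus strand for the first of the windows listed for Tcf7l2. Capitals mark a match to an Egr motif.
Tcf7l1: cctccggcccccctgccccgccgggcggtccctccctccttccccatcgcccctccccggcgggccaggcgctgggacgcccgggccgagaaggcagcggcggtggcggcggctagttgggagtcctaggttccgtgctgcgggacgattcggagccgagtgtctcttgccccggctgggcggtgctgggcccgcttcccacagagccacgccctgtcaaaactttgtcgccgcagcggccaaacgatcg
Tcf7l2: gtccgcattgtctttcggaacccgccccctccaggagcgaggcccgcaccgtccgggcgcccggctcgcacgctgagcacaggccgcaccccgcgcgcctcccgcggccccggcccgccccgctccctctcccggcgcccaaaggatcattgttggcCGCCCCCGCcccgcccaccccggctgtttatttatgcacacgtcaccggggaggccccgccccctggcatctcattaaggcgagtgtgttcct
The motifs searched, on both strands, were CTTTGAT for Tcf/Lef, TGANTCA for AP-1, CCGGAAG for Ets and GCGGGGGCG for Egr. The Tcf7l1 window held none of them. The first Tcf7l2 window held 1 Egr match, on the opposite strand, whose first printed base lies 93 bases before the start. Among all 32851 promoter windows of this length, 2.57% held the Egr motif, 3.21% the Tcf/Lef motif, 6.75% the AP-1 motif and 6.91% the Ets motif. The G+C content was 73.6% for Tcf7l1 and 72.8% for this Tcf7l2 window, against a median of 52.4% over all windows. The second Tcf7l2 window (chr19:55895071-55895320, plus strand) held none of the motifs and had a G+C content of 40.8%. A match describes letters only, and a window without one says nothing of the factor.

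The arrays were Illumina bead arrays, and values are normalised log2 intensities, which compare groups for 1 probe but not levels between probes. A probe counted as detected on an array at a detection p under 0.05, and was tested when detected on at least 3 arrays. Per array, 11319 to 12470 probes were detected (44% to 48.5%), replicates of a group correlated with a median r of 0.993, and no 2 arrays were identical. Differences are log2 differences ± SE from limma, fitted once over all 32 arrays, and a probe was called at a Benjamini-Hochberg adjusted p under 0.05 over all 14716 tested probes. The number of arrays, 3 or 4 a group, limits the precision. With so few arrays, groups often do not overlap. Between genotypes this held for 37.9% of all tested probes at 0 min, 49.8% at 15 min, 47.4% at 60 min, 50.4% at 120 min and 47.8% at 240 min. Against 0 min it held for 14.9% in WT at 60 min and 24.1% in KO at 120 min. For the deleted genes themselves, Spry4 signal passed detection on 13 WT arrays but only 4 KO arrays. Spry1 and Spry2 were read too rarely to test. Spry1 was detected on 2 KO arrays and no WT array, and Spry2 on 2 WT arrays and no KO array. These counts do not check the deletion of the 2 genes, and where the Sprouty probes lie relative to the excised parts was not given. Of 12 fibroblast markers with a probe, 10 were detected on all 32 arrays. The summed deposited intensity of the 12 ran from 26899.2 to 33940.2 in WT and from 12052.2 to 18864.4 in KO. Averaged over the times, 5 of the 12 were called higher in KO (31% of all probes) and 5 lower (35.2%). The largest difference was that of Dcn (-3.24 ± 0.038). Lum, counted among the lower, was detected on all 16 WT arrays and no KO array, so its difference is a description with no test. Pdgfrb was detected on 9 WT arrays and all 16 KO arrays. Of 7 T cell and leukocyte markers, 6 were detected on no array, Ptprc and Cd3d among them, and the summed intensity of that list lay between -53.3 and 22.5. Of 8 epithelial markers, 3 were detected on no array, Cdh1 was detected on 7 KO arrays and no WT array, and Ocln on 1 WT array alone. Krt8 was detected on 16 WT and 15 KO arrays and Cldn4 on 15 and 9. Averaged over the times, both were called lower in KO (-1.73 ± 0.062 and -0.57 ± 0.073). The summed intensity of the epithelial list was 113 to 241.3 in WT and 15.4 to 79.6 in KO. The part of these marker differences in the results below was not tested, and in bulk RNA fewer cells of a type cannot be told apart from less RNA per cell.

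**Figure D1:**
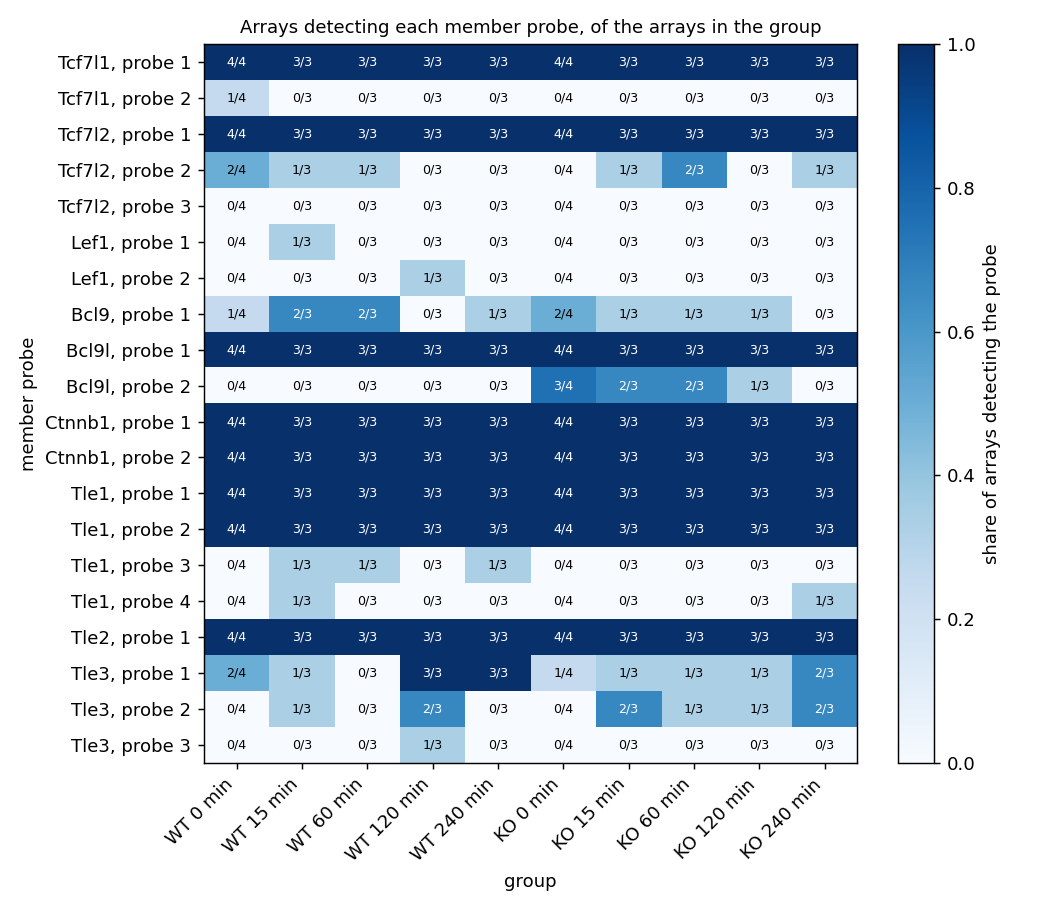
Number of arrays on which each of the 20 member probes was detected (detection p under 0.05), with groups on the x axis, member probes on the y axis and shading for the share of arrays in the group. The probes detected on all 32 arrays were 1 each of Tcf7l1, Tcf7l2, Bcl9l and Tle2 and 2 each of Ctnnb1 and Tle1, while neither Lef1 probe was detected on more than 1 array.

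Member transcripts ranged from bright to undetected. Probes of Tcf7l1 (probe 1), Tcf7l2 (probe 1), Bcl9l (probe 1), Ctnnb1 (both), Tle1 (probes 1 and 2) and Tle2 were detected on all 32 arrays. The other probes were dim. Bcl9 was detected on 11 arrays, Tle3 on 15 (probe 1) and 9 (probe 2), Tcf7l2 probe 2 on 8, Bcl9l probe 2 on 8 and Tle1 probe 3 on 3, and these were tested. The remaining 6 probes were detected on 2 arrays or fewer and were not tested. They were Tcf7l1 probe 2, Tcf7l2 probe 3, Tle1 probe 4, Tle3 probe 3 and both probes of Lef1, the lymphoid and developmental member of the family. Each Lef1 probe was detected on 1 array, a WT array at 15 min for probe 1 and a WT array at 120 min for probe 2. Tests therefore covered 14 probes of 8 genes.

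Tcf7l1, the Tcf factor best known as a repressor, was lower in KO than in WT before FGF and shortly after it, and fell in both genotypes by 240 min. Its WT arrays read 9.79, 9.83, 9.48 and 9.83 at 0 min, 10.12, 10.19 and 10.12 at 15 min, 9.76, 9.74 and 9.74 at 60 min, 9.29, 9.43 and 9.47 at 120 min, and 8.94, 8.73 and 8.68 at 240 min. Its KO arrays read 9.38, 9.58, 9.66 and 9.33 at 0 min, 9.64, 9.61 and 9.51 at 15 min, 9.72, 9.67 and 9.73 at 60 min, 9.06, 9.01 and 9.13 at 120 min, and 9.06, 8.82 and 9.04 at 240 min. The 3 WT arrays at 15 min were the highest of all 32, and the WT arrays at 240 min lay below every other WT array. Against 0 min, WT rose by 0.41 ± 0.092 at 15 min (1.33-fold, limma adjusted p = 0.015), and it was 0.02 ± 0.092 away from 0 min at 60 min (adjusted p = 0.953, limma). WT then fell by 0.33 ± 0.092 at 120 min (limma adjusted p = 0.0398) and fell by 0.95 ± 0.092 at 240 min (1.93-fold, limma adjusted p = 1.09e-08). KO showed no called early change, with differences of 0.10 ± 0.092 at 15 min and 0.22 ± 0.092 at 60 min (limma adjusted p = 0.779 and 0.184). KO fell by 0.42 ± 0.092 at 120 min (limma adjusted p = 0.00213) and by 0.52 ± 0.092 at 240 min (1.43-fold, limma adjusted p = 0.000144). The WT rise at 15 min was not called without WT 0 min replicate C or WT 15 min replicate B (adjusted p up to 0.0952, limma), and in 9 of 10 settings it was called. The WT fall at 120 min was not called without any one of WT 0 min replicates A, B and D and WT 120 min replicates A, B and C (adjusted p up to 0.192, limma), and was called in 7 of 10 settings.

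Between genotypes, Tcf7l1 in KO differed from WT by -0.24 ± 0.085 at 0 min (limma adjusted p = 0.022), with overlapping arrays, and by -0.56 ± 0.098 at 15 min (1.47-fold lower, limma adjusted p = 4.28e-05), where the arrays were separate. At 60 min the difference was -0.04 ± 0.098 (limma adjusted p = 0.779). At 120 min KO was lower by -0.33 ± 0.098 (limma adjusted p = 0.00713), and at 240 min the difference was 0.19 ± 0.098 (limma adjusted p = 0.128). The 0 min difference was not called without any one of WT replicates A, B and D or KO replicates A and D (adjusted p up to 0.0938, limma), and was called in 8 of 10 settings. The 2 time courses differed by the limma F-test over the 4 response differences (F = 8.36, adjusted p = 0.00629), which was called in all 10 alternative settings and without any single array. At 240 min alone, the KO response minus the WT response was 0.43 ± 0.13 (limma adjusted p = 0.0437), a call kept in 18 of the 32 fits that each left out 1 array (adjusted p up to 0.124, limma, without KO 240 min replicate C) and in 6 of the 10 alternative settings, lost for example under median scaling over all probes and with no filter.

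Tcf7l2, the family member that acts as activator and repressor, fell late in WT and less in KO. Its WT arrays read 6.49, 6.69, 6.21 and 6.68 at 0 min, 6.50, 6.44 and 6.41 at 15 min, 6.47, 6.38 and 6.40 at 60 min, 6.07, 6.26 and 6.05 at 120 min, and 5.42, 5.35 and 5.08 at 240 min. Its KO arrays read 6.54, 6.69, 6.39 and 6.50 at 0 min, 6.52, 6.74 and 6.39 at 15 min, 6.82, 6.84 and 6.97 at 60 min, 6.11, 6.27 and 6.30 at 120 min, and 6.50, 5.84 and 5.94 at 240 min. The 3 WT arrays at 240 min were the lowest of all 32, the 3 KO arrays at 60 min were the highest, and 1 KO array at 240 min lay among the KO arrays at 0 min. WT fell by 1.24 ± 0.13 at 240 min (2.36-fold, limma adjusted p = 3.11e-08). KO fell by 0.44 ± 0.13 (1.35-fold, limma adjusted p = 0.0149), a call lost without KO 0 min replicate B or KO 240 min replicate B or C (adjusted p up to 0.121, limma) and called in 9 of 10 settings. The test of the difference itself gave 0.80 ± 0.18 for the KO response minus the WT response at 240 min (limma adjusted p = 0.00568), called in all 10 alternative settings and without any single array.

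At earlier times Tcf7l2 showed no called response, with -0.39 ± 0.13 in WT and -0.30 ± 0.13 in KO at 120 min (limma adjusted p = 0.0932 and 0.124) and 0.35 ± 0.13 in KO at 60 min (limma adjusted p = 0.119). Between genotypes the starting levels differed by 0.01 ± 0.12 (limma adjusted p = 0.948). KO was higher at 60 min by 0.46 ± 0.14 (1.37-fold, limma adjusted p = 0.00766) and at 240 min by 0.81 ± 0.14 (1.76-fold, limma adjusted p = 1.71e-05), with no overlap of the arrays at either time. The F-test over the 4 response differences gave F = 6.44 (limma adjusted p = 0.0208), and its call was lost without WT 240 min replicate C or KO 240 min replicate A (adjusted p up to 0.0729, limma). Tcf7l2 probe 2, detected on 8 arrays, was called in no comparison.

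**Figure D2:**
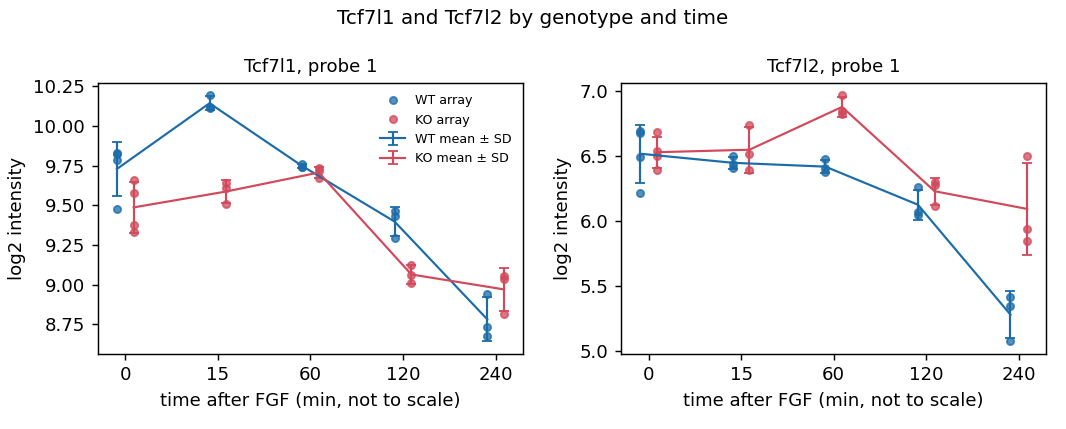
Normalised log2 intensity of Tcf7l1 (left, probe 1) and Tcf7l2 (right, probe 1) against time after FGF in min, spaced by group, with 1 point per array (n = 4 at 0 min, 3 at other times) and lines joining group means ± SD for WT and KO. The WT arrays of Tcf7l2 at 240 min, at 5.08 to 5.42, lie below every other array, and the WT arrays of Tcf7l1 at 15 min, at 10.12 to 10.19, lie above every other array.

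Ctnnb1, beta-catenin itself, moved little. Probe 1 read 12.09, 12.14, 11.89 and 12.15 in WT and 12.31, 12.40, 11.98 and 12.33 in KO at 0 min, and every array of all 10 groups lay between 11.89 and 12.40. Replicate C was the lowest array in both genotypes at 0 min. Averaged over the times, probe 1 was higher in KO by 0.12 ± 0.039 (limma adjusted p = 0.00754), and probe 2 differed by 0.07 ± 0.041 (limma adjusted p = 0.145). The probe 1 call was lost under both median scalings, and neither probe was called at a single time, with adjusted p from limma of 0.0555 (probe 1) and 0.0812 (probe 2) at 0 min. In KO at 120 min probe 2 read 10.19, 10.24 and 10.32, against 10.71, 10.64, 10.67 and 10.48 at 0 min, with no overlap. This was a fall by 0.38 ± 0.088 (1.3-fold, limma adjusted p = 0.00416), while probe 1 gave -0.24 ± 0.085 (limma adjusted p = 0.0613). The KO response of probe 2 minus its WT response was -0.34 ± 0.12 at 120 min (limma adjusted p = 0.183). In WT neither Ctnnb1 probe was called at any time.

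Bcl9l, which bridges beta-catenin to Pygopus proteins, fell after FGF in both genotypes, first called at 60 min in WT and at 120 min in KO. Its probe 1 read, in WT, 7.98, 7.93, 7.45 and 8.0 at 0 min, 7.69, 7.91 and 7.59 at 15 min, 7.23, 7.21 and 7.25 at 60 min, 6.90, 7.20 and 6.88 at 120 min, and 6.54, 6.41 and 6.55 at 240 min. The same probe read, in KO, 7.90, 8.34, 8.52 and 7.83 at 0 min, 8.09, 8.50 and 7.95 at 15 min, 8.19, 8.32 and 8.60 at 60 min, 7.52, 6.92 and 7.20 at 120 min, and 7.22, 7.02 and 7.30 at 240 min. At 60 min all KO arrays were above all WT arrays, which were already below their 0 min arrays, while the KO arrays at 60 min still lay within or above the range at 0 min. WT fell by 0.61 ± 0.16 at 60 min (1.53-fold, limma adjusted p = 0.0266), by 0.85 ± 0.16 at 120 min (1.8-fold, limma adjusted p = 0.00163) and by 1.34 ± 0.16 at 240 min (2.53-fold, limma adjusted p = 6.95e-07). KO stood at 0.22 ± 0.16 against its 0 min arrays at 60 min (limma adjusted p = 0.527) and fell by 0.94 ± 0.16 at 120 min (1.92-fold, limma adjusted p = 0.000193) and by 0.97 ± 0.16 at 240 min (1.96-fold, limma adjusted p = 7.44e-05). The WT fall at 60 min was not called without any one of WT 0 min replicates A, B and D or WT 60 min replicates A, B and C (adjusted p up to 0.0891, limma), and was called in 8 of 10 settings.

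The difference between those responses did not pass its own test. The KO response of Bcl9l probe 1 minus its WT response was 0.83 ± 0.23 at 60 min (limma adjusted p = 0.139) and 0.37 ± 0.23 at 240 min (limma adjusted p = 0.385), and the F-test over the 4 times gave F = 4.51 (limma adjusted p = 0.0687). Without WT 0 min replicate C or KO 0 min replicate C the 60 min difference was called (lowest adjusted p = 0.0402, limma). The levels did differ between genotypes. KO was higher by 0.31 ± 0.15 at 0 min (limma adjusted p = 0.103, not called), by 0.45 ± 0.18 at 15 min (limma adjusted p = 0.044), by 1.14 ± 0.18 at 60 min (2.2-fold, limma adjusted p = 6.28e-06) and by 0.68 ± 0.18 at 240 min (1.6-fold, limma adjusted p = 0.00241), with 0.22 ± 0.18 at 120 min (limma adjusted p = 0.336). The 15 min call was lost without WT 15 min replicate A or C or KO 15 min replicate A or B (adjusted p up to 0.259, limma), and in 5 of the 10 alternative settings.

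Bcl9l probe 2 was not well above background on any of the 16 WT arrays and was detected on 8 KO arrays. It read 4.48 to 4.77 in WT and 4.75 to 5.21 in KO at 0 min, and 4.40 to 4.52 in WT and 4.74 to 5.26 in KO at 60 min. It passed the filter through KO arrays alone, the genotype in which it was higher, so its levels between genotypes are a description with no test. Its levels over time were called in neither genotype. Bcl9, the close relative of Bcl9l, was dim in all groups, with group means of 4.52 to 4.91, and was called in no comparison.

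**Figure D3:**
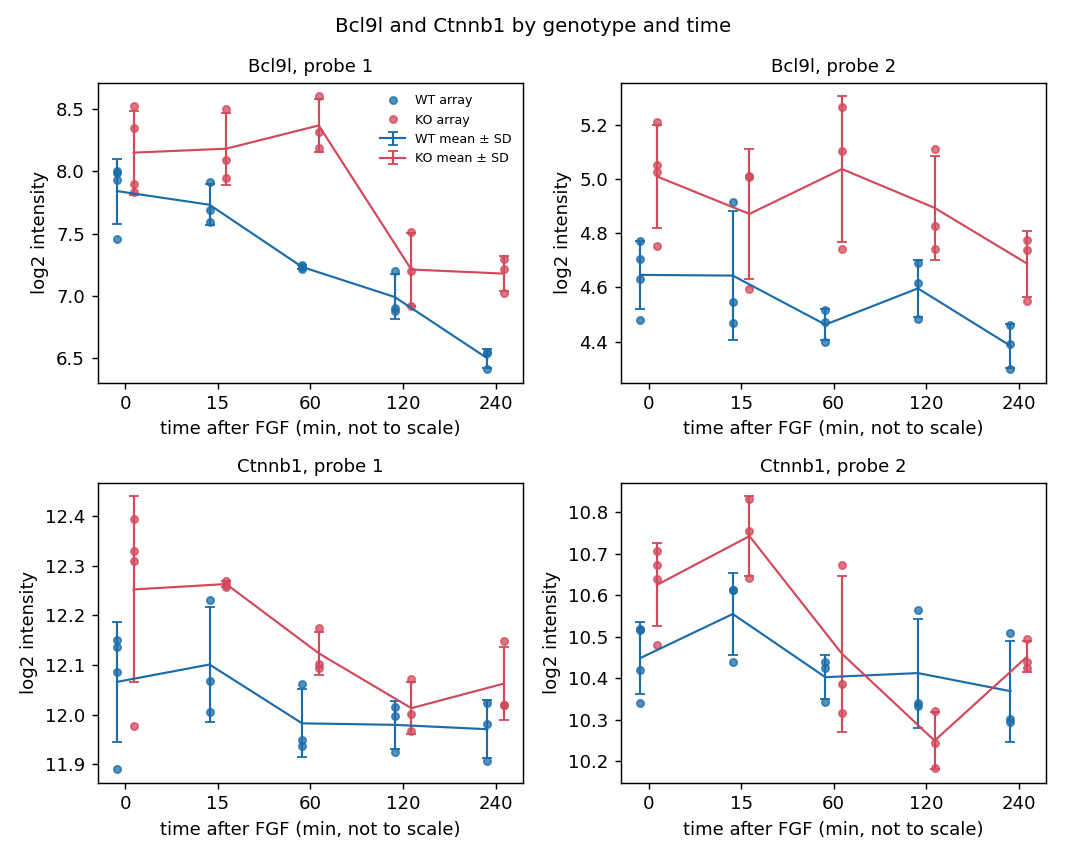
Normalised log2 intensity of both Bcl9l probes (top) and both Ctnnb1 probes (bottom) against time after FGF in min, spaced by group, with 1 point per array (n = 4 at 0 min, 3 at other times) and lines joining group means ± SD for WT and KO. At 60 min Bcl9l probe 1 lies at 7.21 to 7.25 in WT and 8.19 to 8.60 in KO, and all Ctnnb1 probe 1 arrays lie between 11.89 and 12.40.

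Tle1, a Groucho-type corepressor of Tcf/Lef factors, was lower in KO than in WT at most times, and dropped in WT at 60 min, where the arrays of both genotypes overlapped. Probe 1 read, in WT, 9.40, 9.29, 9.20 and 9.63 at 0 min, 9.53, 9.54 and 9.60 at 15 min, 8.89, 8.81 and 8.56 at 60 min, 9.24, 9.44 and 9.68 at 120 min, and 8.93, 9.19 and 8.92 at 240 min. Probe 1 read, in KO, 8.62, 8.59, 8.91 and 8.64 at 0 min, 8.84, 8.96 and 8.92 at 15 min, 8.59, 8.65 and 8.69 at 60 min, 8.60, 8.72 and 8.89 at 120 min, and 8.90, 8.51 and 8.91 at 240 min. WT arrays lay above all KO arrays at 0, 15 and 120 min and, by a margin within rounding (8.92 against 8.91), at 240 min, and mixed with them at 60 min. KO differed from WT by -0.69 ± 0.11 at 0 min (1.61-fold lower, limma adjusted p = 7.63e-06), -0.65 ± 0.13 at 15 min (limma adjusted p = 0.000143) and -0.72 ± 0.13 at 120 min (1.64-fold lower, limma adjusted p = 3.41e-05). At 60 min the difference was -0.11 ± 0.13 (limma adjusted p = 0.533), and at 240 min it was -0.24 ± 0.13 (limma adjusted p = 0.131).

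Tle1 probe 2 gave a second reading of the same transcript. Its WT arrays read 7.56, 7.28, 7.18 and 7.47 at 0 min, 7.10, 7.01 and 6.78 at 60 min and 7.49, 7.64 and 7.65 at 120 min, and its KO arrays read 6.77, 6.92, 6.75 and 6.74, then 6.95, 6.85 and 6.82, then 6.71, 6.65 and 6.75 at those times. Probe 2 thus also had WT above KO at 0 and 120 min and overlapping arrays at 60 min. Its KO minus WT differences were -0.58 ± 0.10 at 0 min, -0.59 ± 0.12 at 15 min, -0.09 ± 0.12 at 60 min, -0.89 ± 0.12 at 120 min (1.85-fold lower, limma adjusted p = 3.48e-07) and -0.49 ± 0.12 at 240 min (limma adjusted p = 0.000954). All but the 60 min difference of probe 2 were called. At 240 min the probe 1 difference was not called. All WT arrays of both probes lay above all KO arrays at that time, but 47.8% of all tested probes had separate arrays there.

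The 60 min drop of Tle1 in WT was called for both probes. Probe 1 fell by 0.63 ± 0.12 (1.54-fold, limma adjusted p = 0.000883), and probe 2 fell by 0.41 ± 0.11 (limma adjusted p = 0.0227), a call lost without WT 0 min replicate A or D or WT 60 min replicate B or C (adjusted p up to 0.172, limma) and called in 6 of 9 settings. At 120 min WT stood 0.08 ± 0.12 (probe 1) and 0.22 ± 0.11 (probe 2) from its 0 min level, neither called (limma adjusted p = 0.848 and 0.345). At 240 min probe 1 fell by 0.37 ± 0.12 in WT (limma adjusted p = 0.035), lost without WT 0 min replicate A or D or WT 240 min replicate A or C (adjusted p up to 0.145, limma) and called in 7 of 10 settings, and probe 2 gave -0.24 ± 0.11 (limma adjusted p = 0.145). No KO response of Tle1 was called at a single time. The response differences at 60 min were 0.58 ± 0.17 (probe 1) and 0.49 ± 0.15 (probe 2) and were not called (limma adjusted p = 0.148 and 0.183). Over the 4 times together the F-test called both probes, with F = 5.28 for probe 1 (limma adjusted p = 0.0425) and F = 6.23 for probe 2 (limma adjusted p = 0.0237). The probe 1 call was kept in 10 of the 32 fits that each left out 1 array (adjusted p up to 0.0931, limma, without WT 60 min replicate C) and in 7 of 10 settings, and that of probe 2 was lost without WT 60 min replicate C, KO 60 min replicate A or WT 120 min replicate B or C (adjusted p up to 0.0715, limma).

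Tle2, a relative of Tle1 in the same corepressor family, was lower in KO before FGF. It read 6.85, 6.86, 6.59 and 6.65 in WT and 6.16, 6.32, 6.14 and 5.92 in KO at 0 min, with no overlap. The WT arrays read 6.85, 6.58 and 6.53 at 60 min, 6.17, 5.76 and 5.93 at 120 min and 6.25, 6.27 and 6.32 at 240 min, so that the lowest of these 3 times was 120 min. KO differed from WT by -0.60 ± 0.14 at 0 min (1.52-fold lower, limma adjusted p = 0.000703) and by -0.44 ± 0.16 at 15 min (limma adjusted p = 0.0273), where the arrays overlapped. The 15 min call was lost without WT 15 min replicate B or C or KO 15 min replicate A or C (adjusted p up to 0.177, limma), and was kept in 8 of 10 settings. WT fell by 0.78 ± 0.15 at 120 min (1.72-fold, limma adjusted p = 0.00122) and by 0.45 ± 0.15 at 240 min (limma adjusted p = 0.0386), and the 240 min call was lost without any one of WT 0 min replicates A and B and WT 240 min replicates A, B and C (adjusted p up to 0.1, limma) and kept in 7 of 10 settings. In KO the differences from 0 min were -0.24 ± 0.15 at 120 min and 0.06 ± 0.15 at 240 min (limma adjusted p = 0.319 and 0.822), and the response differences between genotypes at those times, 0.54 ± 0.21 and 0.52 ± 0.21, were not called (limma adjusted p = 0.208 and 0.144).

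Tle3 and Tle1 probe 3 were read near background. Tle3 probe 2 rose in KO at 240 min (at least 1.1-fold, limma adjusted p = 0.0408). The bound sets the 240 min mean against the lowest detected signal of the 0 min arrays, or the probe's own value where that was higher. It was detected on 2 of the 3 KO arrays at 240 min and on none of the 4 at 0 min, and the call was lost without KO 0 min replicate A, B or D or KO 240 min replicate B or C (adjusted p up to 0.244, limma) and kept in 5 of 8 settings. Tle3 probe 1 was called nowhere. Tle1 probe 3 was detected on 3 WT arrays and no KO array. It read 4.56 to 5.24 in WT and 4.36 to 4.47 in KO at 240 min, and as it passed the filter through WT arrays alone, its levels between genotypes are a description with no test.

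**Figure D4:**
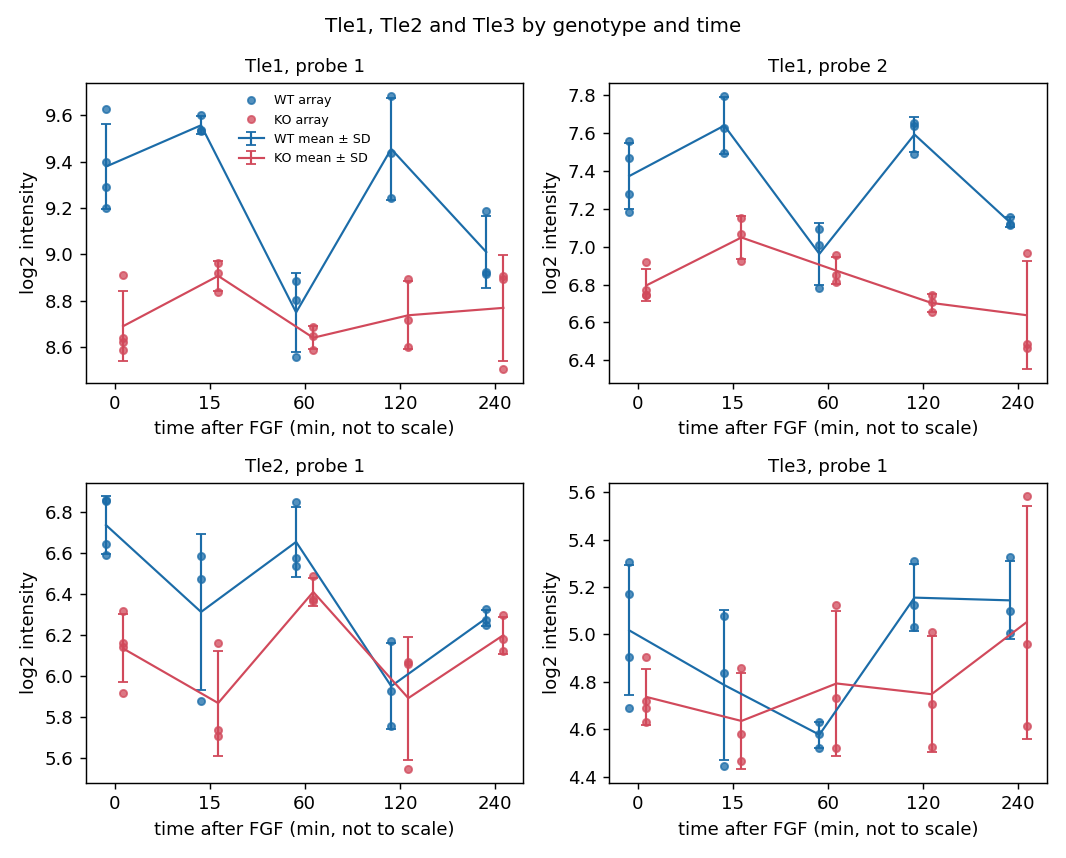
Normalised log2 intensity of Tle1 probes 1 and 2, Tle2 and Tle3 probe 1 against time after FGF in min, spaced by group, with 1 point per array (n = 4 at 0 min, 3 at other times) and lines joining group means ± SD for WT and KO. Tle1 probe 1 lies at 9.20 to 9.63 in WT and 8.59 to 8.91 in KO at 0 min, and at 8.56 to 8.89 and 8.59 to 8.69 at 60 min.

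Member probes called between genotypes were counted beside the share of all tested probes called. Bcl9l probe 2 and Tle1 probe 3 are among the 14 tested but had been detected in 1 genotype alone, so counts are also given for the other 12, a choice made after seeing the data. At 0 min 5 of 14 were called, against 43.6% of all tested probes, and 4 of 12, with none of the 12 higher (21.1% of all probes) and 4 lower (22.5%). The counts of 14 were 6 at 15 min (37.5% of all probes), 3 at 60 min (40%), 3 at 120 min (41.6%) and 4 at 240 min (42%), and those of 12 were 5, 2, 3 and 3. Averaged over the times 9 of 14 were called, against 66.2% of all tested probes, and 7 of 12, with 3 higher (31% of all probes) and 4 lower (35.2%). The 7 were 1 probe each of Tcf7l2, Bcl9l and Ctnnb1, which were higher in KO, and 1 probe of Tcf7l1, 2 of Tle1 and 1 of Tle2, which were lower. Their averaged differences ran from -0.53 ± 0.05 for Tle1 probe 2 (limma adjusted p = 2.5e-10) to 0.56 ± 0.076 for Bcl9l probe 1 (limma adjusted p = 2.43e-07), with -0.20 ± 0.043 for Tcf7l1, 0.30 ± 0.059 for Tcf7l2 and -0.29 ± 0.069 for Tle2. The median averaged difference was -0.07 over the 12 member probes and -0.02 over all tested probes.

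After FGF, few probes of the array were called early and the members' calls came mostly late. In WT 1 of 14 member probes was called at 15 min (1.6% of all probes), 3 at 60 min (4.55%), 3 at 120 min (3.34%) and 5 at 240 min (13.8%). All of these fell except Tcf7l1 at 15 min. Of all probes, 0.815% were called higher in WT at 15 min, and 1.86%, 1.56% and 7.06% were called lower at 60, 120 and 240 min. In KO none was called at 15 min (0.523%) or 60 min (4.6%) by limma, where 1 and 2 probes had an unadjusted p under 0.05. At 120 min 3 were called in KO (13% of all probes), all lower (7.28% of all probes), and at 240 min 4 (19.3%), 3 lower (10.1%) and 1 higher (9.21%). The median change at 240 min was -0.25 in WT and -0.16 in KO over the 14 member probes, against -0.00 and -0.02 over all tested probes. The WT and KO comparisons each use their own 0 min arrays at all times, so the times of 1 genotype share controls.

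Tests of the difference between the responses called no member probe at 15, 60 or 120 min (0.0476%, 0.482% and 1.35% of all probes), where 1, 4 and 2 member probes had an unadjusted p under 0.05. At 240 min 2 were called (6.39% of all probes), Tcf7l1 and Tcf7l2, both with a smaller fall in KO, a sign of the difference called for 3.49% of all probes. The F-test over the 4 times called 4 of 14 (7.24% of all probes), the probes of Tcf7l1, Tcf7l2 and Tle1 described above. F-tests of any change over time called 6 of 14 in WT (24% of all probes) and 6 of 14 in KO (34%). Tcf7l1, Tcf7l2, Bcl9l, Tle1 and Tle2 were called in both genotypes, Tle1 with both bright probes in WT and probe 2 alone in KO, and Ctnnb1 probe 2 was called in KO. In KO the calls for Tle1 probe 2 (limma adjusted p = 0.0418) and Tle2 (limma adjusted p = 0.0342) were kept in 21 and 26 of the 32 fits without 1 array.

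**Figure D5:**
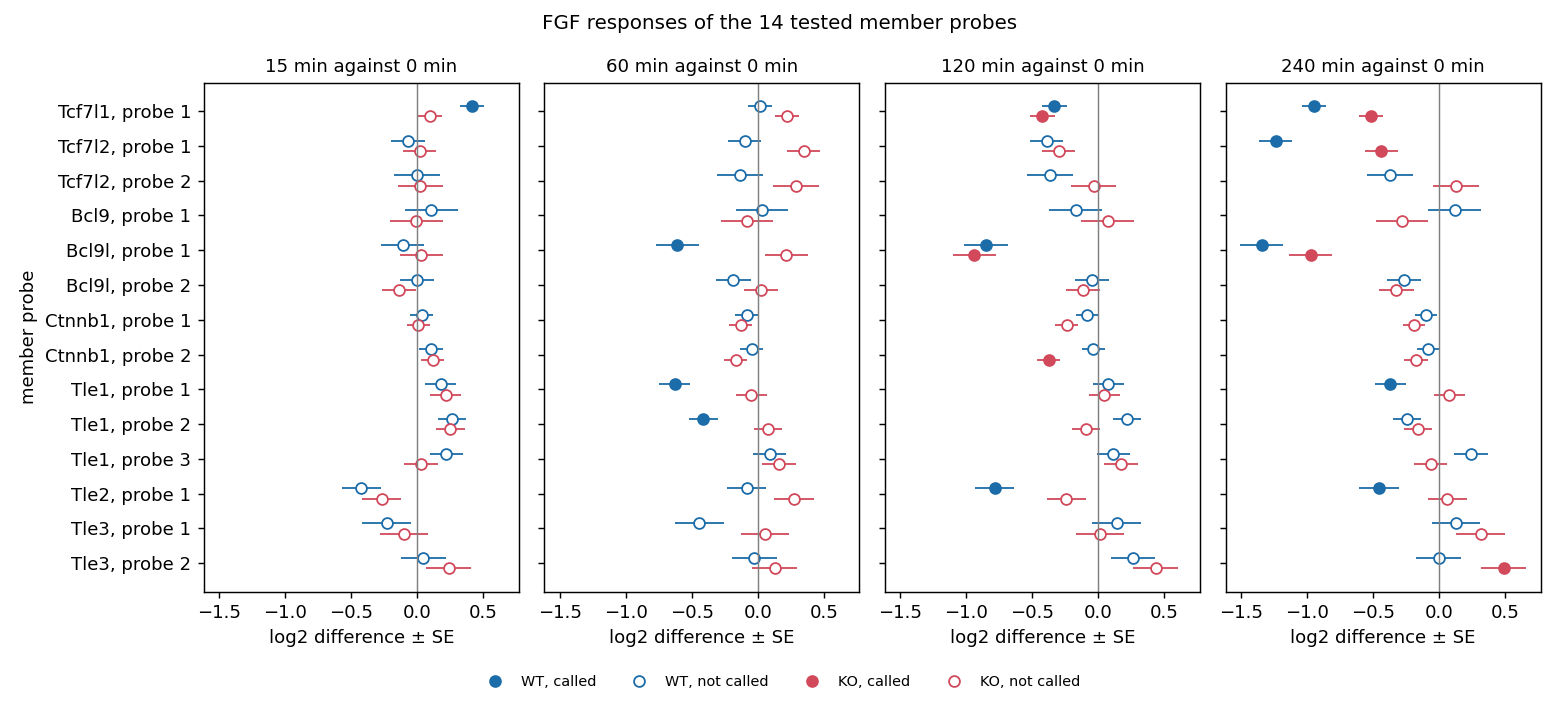
Log2 difference ± SE from 0 min (x axis, same scale in each panel) for the 14 tested member probes (y axis) at 15, 60, 120 and 240 min after FGF in WT and KO, with filled points for calls at an adjusted p under 0.05. At 240 min Tcf7l1, Tcf7l2 and Bcl9l probe 1 were called lower in both genotypes, by 0.95, 1.24 and 1.34 in WT and by 0.52, 0.44 and 0.97 in KO.

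Transcripts whose pattern was most like that of the members were ranked by Pearson's r over the 10 group means, centred within each genotype, among 6455 other genes detected on all arrays. Because all genes were read on the same arrays, these values describe the libraries and carry no test. Nearest to Tcf7l1 were Armcx3 (r = 0.992), the collagen gene Col1a1 (r = 0.990) and Igdcc4 (r = 0.984). Nearest to Tcf7l2 were the semaphorin gene Sema3f (r = 0.996), Klhdc10 (r = 0.994) and Ssbp3 (r = 0.984). Nearest to Bcl9l were Sertad4 (r = 0.984), Rab3il1 (r = 0.971) and the Frizzled receptor gene Fzd2 (r = 0.964).

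Other nuclear partners of beta-catenin were followed as a list, with each gene read by its brightest tested probe. Of 19 with a probe, 16 were tested, and averaged over the times 4 were higher and 6 lower in KO (66.2% of all probes called), with a list median of 0.02 against -0.02 for all probes. The higher ones were Pygo2 (0.33 ± 0.048), which binds Bcl9 proteins, and Tle4, Cbfa2t2 (detected on 3 arrays) and Med12. The genotype of the arrays that detected Cbfa2t2 was not examined, so its difference is only a description. The lower ones included Ctnnbip1 (-0.74 ± 0.042), which blocks the binding of beta-catenin to Tcf factors, and Kdm6a, Sox9 (-0.52 ± 0.053) and Hdac1. At 240 min Sox9, an HMG-box factor known to promote loss of beta-catenin, fell by 0.64 ± 0.11 in WT and rose by 1.14 ± 0.11 in KO, a response difference of 1.78 ± 0.16 (limma adjusted p = 1.41e-08). At 240 min the acetyltransferase gene Ep300 had the other called response difference of the list (0.86 ± 0.19, limma adjusted p = 0.00619). Against 0 min, 3 of the 16 were called at 240 min in WT (13.8% of all probes) and 5 in KO (19.3%). Besides Sox9, Pygo2 rose by 0.42 in both genotypes, and Tle6 fell by 0.60 in WT and by 0.49 in KO. In KO alone, Tle4 fell by 0.63 and Ep300 rose by 0.51.

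The destruction complex, which marks beta-catenin for degradation, was tested in a list that also held Dishevelled genes. Csnk1g2, Csnk1g3 and Tnks were listed too, although they are not core parts of the complex. Of the 20 listed genes with a probe, 14 were tested. Averaged over the times 6 were higher (31% of all probes) and 4 lower (35.2%) in KO, with a median of 0.09. The higher ones included Apc, Gsk3b, Btrc and Dvl1 (0.22 to 0.32), and the lower ones were Csnk1g3 (-0.51 ± 0.04), Tnks (detected on 4 arrays), Ppp2ca and Csnk1g2. For Tnks the genotype of the detecting arrays was not examined, so its difference is only a description. At 240 min 1 of 14 was called in WT (13.8% of all probes), Csnk1g3 (0.33), and 2 in KO (19.3%), Csnk1e (0.66) and Csnk1g3 (0.74), all higher. The response differences of these genes were the 2 called in the list at 240 min (6.39% of all probes). They were 0.72 for Csnk1e (limma adjusted p = 0.00275) and 0.41 for Csnk1g3 (limma adjusted p = 0.0371), the latter called in 7 of 10 settings. Adherens junction partners of beta-catenin were tested through 7 of 12 genes, of which 3 were higher in KO and 3 lower (66.2% of all probes called), with a median of -0.19. Cdh1, counted among the higher, passed the filter through KO arrays alone, so its level between genotypes is a description with no test. Cdh3, also counted among the higher, was detected on 8 arrays, whose genotype was not examined. Among the lower ones was Ctnna1 (-0.55 ± 0.041), which links beta-catenin to actin.

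Target and feedback genes of beta-catenin were tested through 17 of 25 genes with a probe, and Axin2, Lgr5, Znrf3, Rnf43 and Dkk1 were among those detected on too few arrays to test. Averaged over the times 8 were higher (31% of all probes) and 3 lower (35.2%) in KO, with a median of 0.07. The largest were Fosl1 (0.97 ± 0.065), an AP-1 subunit, and Apcdd1 (-1.18 ± 0.071), a Wnt inhibitor. After FGF 7 of 17 rose and 2 fell in WT at 240 min (13.8% of all probes called), and 6 rose and 2 fell in KO (19.3%), with medians of 0.27 and 0.09. At 60 min Myc, Jun and Fosl1 had risen by 1.63, 1.60 and 1.35 in WT and by 0.92, 1.75 and 0.79 in KO, and no response difference of the list was called at that time (limma). Jun rose by 1.04 in WT and 0.91 in KO at 240 min, and Ccn4, a matricellular gene, fell by 0.94 ± 0.082 and 0.59 ± 0.082. Ccnd1, which encodes cyclin D1, rose by 0.70 ± 0.10 in WT and stood at -0.03 ± 0.10 in KO, a response difference of -0.72 ± 0.15 (limma adjusted p = 0.00222). Cd44 rose by 0.69 in WT and by 1.28 in KO. It had the other called response difference of the list at 240 min, of opposite sign (0.59, limma adjusted p = 0.0386), called in 5 of 10 settings. Several of the target genes that rose, Jun, Fosl1 and Myc among them, are also known immediate or delayed early genes of growth factor signalling.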

How the data were processed

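Total RNA from 32 samples of immortalized MEFs was hybridised to Illumina bead arrays. The deposited table gives 1 probe intensity per array, not normalised, and beside it a detection fraction from 0 to 1, taken here as 1 minus the detection p, per the file headers; GenomeStudio 1.9.0 is named in the submitters' processing notes. The table of linear intensity values in the series matrix, deposited by the authors already normalised (its column medians are nearly equal), served as an alternative. A further 192 columns of values, counted over all samples, were not used. Background correction by normexp used the negative-control mean and SD inferred from the detection p, with an offset of 16, followed by log2 and quantile normalisation (limma 3.58.1, R 4.3.3). Probes detected at p under 0.05 on at least 3 arrays were kept, 14716 of 25697. Symbols came from the platform annotation for 23978 probes, of which 23962 matched RefSeq, and 1719 had none. One limma model with 10 group means (22 residual degrees of freedom) gave every contrast, with Benjamini-Hochberg adjustment over all kept probes. A probe dim in 1 group was given a bound. All probes of the members are named, and genes of the other lists by the size of called differences, up to 4 per direction between genotypes and up to 3 per direction in responses. Not every gene within these limits is named. The members, lists and tests were chosen with earlier results of these data known. Arrays were not paired by replicate letter in the main fit. Deviations from group means correlated with a median of -0.00888 over 136 pairs of the same letter, 7 of them over 0.1. Over 324 pairs of different letters the median was 0.00653, with 29 over 0.1. These values cannot show whether cultures of the same letter were handled together. The pipeline was tested on simulated data with known changes. Alternatives were other scalings, the series matrix values, an offset of 50, no filter, detection on 16 arrays, fits on the groups of a contrast, 1 probe per gene, a replicate block, array weights and leaving out each array. The chip as a block was not run, since the files used here name no chip.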

Additional observations from a re-analysis of the deposited data

Results flagged for a closer look

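Among 28 groups of 4 arrays tested for an array far from the rest, 4 had one, and chance flags about 1 in 20 groups. Bcl9l probe 1 read 7.45 on WT 0 min replicate C, with the other arrays of the group at 7.93 to 8.0. Tcf7l1 probe 1 read 9.48 on the same array, with the others at 9.79 to 9.83. Tle1 probe 1 read 8.91 on KO 0 min replicate C, with the others at 8.59 to 8.64, and Tle1 probe 2 read 6.92 on KO 0 min replicate B, with the others at 6.74 to 6.77. WT 0 min replicate C was the lowest of its group for every probe whose WT arrays at 0 min are all listed above. These were Tcf7l1, Tcf7l2 (6.21), Bcl9l probe 1, Ctnnb1 probe 1 (11.89), Tle1 probes 1 and 2 (9.20 and 7.18) and Tle2 (6.59). This array enters every WT response and every genotype difference at 0 min, and why it read low was not tested.

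Tests of the difference between the genotypes' responses to FGF were called for 3 genes. The KO response at 240 min minus the WT response was 0.43 for Tcf7l1 (limma adjusted p = 0.0437) and 0.80 for Tcf7l2 (limma adjusted p = 0.00568). The Tcf7l1 call was kept in 6 of 10 alternative settings and the Tcf7l2 call in all 10. The F-test over the 4 times gave 8.36 for Tcf7l1, 6.44 for Tcf7l2, 5.28 for Tle1 probe 1 and 6.23 for Tle1 probe 2, with limma adjusted p of 0.00629, 0.0208, 0.0425 and 0.0237. The Tle1 probe 1 call was kept in 7 of 10 settings.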

How the results depend on the processing

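No called member difference changed sign under any alternative, and of 67 called member results 47 were kept in every setting and 47 without any single array. The 67 include calls between genotypes of Bcl9l probe 2 and Tle1 probe 3, which are a description with no test. The ranges below for KO against WT without each array in turn cover these probes as well. Median scaling over all probes gave 3 member calls for KO against WT at 15 min (6 as reported), 1 in WT at 60 min (3), 3 in WT at 240 min (5), 8 in KO at 120 min (3), and 3 and 1 response differences at 120 and 240 min (0 and 2). Median scaling over the tested probes gave 5 calls in KO at 120 min. No filter gave 1 response difference at 240 min, fits on the groups of a contrast gave 0 in WT at 15 min, 1 in WT at 60 min and 1 response difference at 240 min, and 1 probe per gene gave 2 for KO against WT at 240 min (4). The replicate block gave 1 response difference at 240 min, so that of Tcf7l1 was lost, and its count of calls stayed within 1.5 times in every other comparison. Counting only the 12 member probes detected in both genotypes, chosen after seeing the data, kept each genotype count within 1.5 times. Without each array in turn, calls ran from 3 to 6 for KO against WT at 0 and at 15 min, 3 to 3 at 60 min, 3 to 4 at 120 min, 4 to 5 at 240 min and 9 to 10 averaged, from 0 to 1, 1 to 3, 2 to 4 and 3 to 6 in WT and from 0 to 0, 0 to 0, 3 to 4 and 2 to 6 in KO at 15, 60, 120 and 240 min, from 0 to 0, 0 to 1, 0 to 0 and 1 to 3 for the response differences at those times, and from 2 to 5, 6 to 7 and 4 to 7 for the F-tests of the response difference, of WT and of KO. Scaling over all probes moved the median of all tested probes to -0.20 for KO at 120 min, -0.10 for KO at 60 min, -0.12 for KO against WT at 120 min, and -0.11, -0.17, -0.26 and -0.10 for the response differences at 15, 60, 120 and 240 min, and scaling over the tested probes moved it to -0.11 for KO against WT at 0 and at 240 min. The share of called probes that were higher moved from 44.1% to 6.22% and 64.8% in KO at 120 min and from 48.3% to 67.5% and 37.5% for KO against WT at 0 min under these 2 scalings. Scaling over all probes moved it from 51.1% to 78% in WT at 15 min, from 59.2% to 82.9% at 60 min, from 53.2% to 77.3% at 120 min, from 47.8% to 28.6% in KO at 240 min and from 54.6% to 33.7% for the response difference at 240 min. Of 85 called results of the other lists 62 were kept in every setting and 62 without any single array, and among those named the averaged Med12 difference was kept in 18 of 32 such fits (limma adjusted p up to 0.0753). The 85 include the averaged Cdh1 difference, which is a description with no test. They also include those of Cbfa2t2, Tnks and Cdh3, for which the genotype of the detecting arrays was not examined. The cause of these changes was not tested. Dim probes (Bcl9, Tle3, Tcf7l2 probe 2, Bcl9l probe 2, Tle1 probe 3) were read near background, where the correction compresses differences.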
